A study of Drosophila melanogaster with 24 samples.

Results

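In whole female Drosophila melanogaster, 98 of the 16637 transcripts on a NimbleGen oligonucleotide array had a level at least 0.8 log2 lower on dietary restriction (DR) than on the other diet (AL), both with and without the drug RU486. That is 0.589% of the transcripts. A transcript's level is the mean log2 brightness of its probes, and a group's level is the median of its 6 pools. The members were chosen on the measured differences of these group levels, so the diet differences below describe how they were chosen and carry no test. The rule asks that both differences pass the same limit and not that they be alike, and for some members they differed by about 1 log2.

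Per array, the total RNA of about 35 pooled female flies aged 13 days was amplified and labelled with Cy3, for 24 arrays in all. There were 6 pools in each of 4 groups, which were DR with RU486, DR without RU486, AL with RU486 and AL without RU486. DR food was given for 10 days, while the labels do not say what AL stands for, and it serves below only as a name. Flies of every group, the AL flies without RU486 included, were labelled +/+; Act5c-GS-Gal4/+; P{GD3482}v8105 /+. They carried a GeneSwitch driver under Act5c control and an RNAi insertion, which RU486 switches on throughout the body. From general knowledge and not from the labels, the insertion targets ACC, the acetyl-CoA carboxylase that starts fatty acid synthesis. Its transcript was not analysed here, so the knockdown was not checked at its target. The effect of the drug and that of the transgene it switches on cannot be told apart in these groups. Nothing in the labels ties a pool to a separate culture, so p-values measure the spread between pools.

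Dietary restriction in flies usually means food with less yeast, and it is known to lengthen life and to lower egg production in females. Transcripts that are lower on DR are those whose RNA makes up a smaller part of the animal's total on that food. The array names transcripts by FlyBase number, which separates the isoforms of a gene. The table of RefSeq genes used here held 0 of the 98 members, so they are given by number, and no gene name, role or sequence is given for them. For the same reason the flies' sex and tissues were not checked against marker genes. The lists of pathway genes matched 3 transcripts, mio and Wdr24 of the insulin and TOR list and Fatp1 of the fatty acid list, and 0 of them were members.

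One array, that of AL with RU486 pool 1, was unlike the others, with an SD of 0.365 log2 for the differences of its transcripts from their group means. The next was DR with RU486 pool 3, with 0.228. Results that rest on these arrays are given with and without them. Random control probes were themselves dimmer on DR, by a difference of -0.17 log2 without RU486 and -0.10 with it. Over all transcripts the median diet difference was -0.07 without RU486 and -0.03 with RU486. Centring each array on its median moved these further down, to -0.18 and -0.13. All 98 members then lay below -0.8 at both settings, which follows from the downward shift and is no check of the rule. An adjustment for the dimmer random probes, which would move the differences up, was not made.

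The diet differences of the members were skewed towards a few large ones. Without RU486 they ran from -4.88 to -0.80 log2, with a median of -1.34. With RU486 they ran from -4.71 to -0.81, with a median of -1.19. Both differences were at most -1 for 54 members. Differences of -2 or lower were found for 19 members without RU486 and for 16 with it, and every transcript on the array that was this low at either setting was a member. In whole-fly RNA, fewer cells of a type and less RNA per cell cannot be told apart. Just inside the limit lay FBtr0100090, at -0.801 without RU486 and -0.919 with it, FBtr0085426, at -0.805 and -1.222, and FBtr0080564, at -1.478 and -0.805. Just outside it lay FBtr0071146, at -0.838 and -0.797, FBtr0077550, at -0.797 and -1.229, and FBtr0070293, at -0.787 and -0.839.

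**Figure D1:**
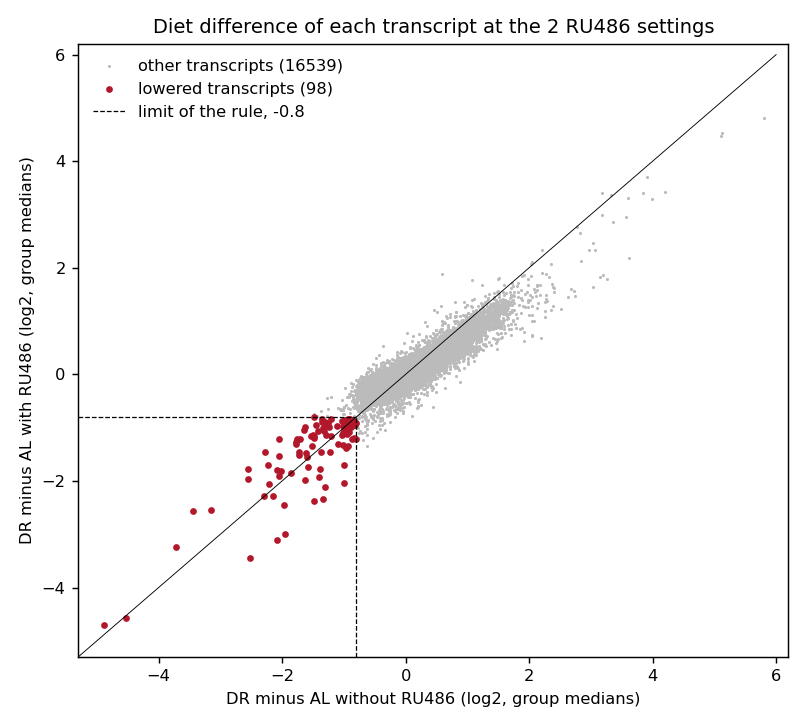
Each point is 1 transcript, with the DR minus AL difference of group medians without RU486 on the x axis and with RU486 on the y axis, both in log2. The 98 lowered transcripts, in red, fill the corner below -0.8 on both axes and reach -4.88 and -4.71, and the thin diagonal marks equal differences.

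On DR, 88 members stayed above the level of random probes on all 12 arrays, against 98 members on all 12 AL arrays. On all 6 DR arrays of a group, 92 members were above it with RU486 and 90 without it. Of all 16637 transcripts, 13235 and 13781 were. On AL all 98 members were above it in both groups, against 12500 of all transcripts with RU486 and 12609 without it. The rule favours this, since it asks for higher levels on AL. Most members were therefore dimmer but still measured on DR, and 10 were below background on 1 or more DR arrays.

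Separation between pools was wide for most members. All 6 DR pools lay below all 6 AL pools for 95 members without RU486, where 24.2% of all transcripts did so, and for 82 with RU486, where 10.9% did. limma called 98 of 98 lower on DR without RU486, where 65.3% of all transcripts passed, 29.7% higher and 35.5% lower. With RU486 it called 97 of 98 lower, where 48.8% of all transcripts passed, 24.5% higher and 24.3% lower. These counts follow from the rule and are given as a description. Pools of the 2 diets overlapped at 1 or both settings for 17 members. Without RU486 the overlap was confined to FBtr0077986, FBtr0078587 and FBtr0082762, and the lowest AL pool minus the highest DR pool was -0.12 log2 or more. With RU486 this gap was as low as -1.78 log2, for FBtr0087436, one of 4 members described below whose DR pools disagreed.

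**Figure D2:**
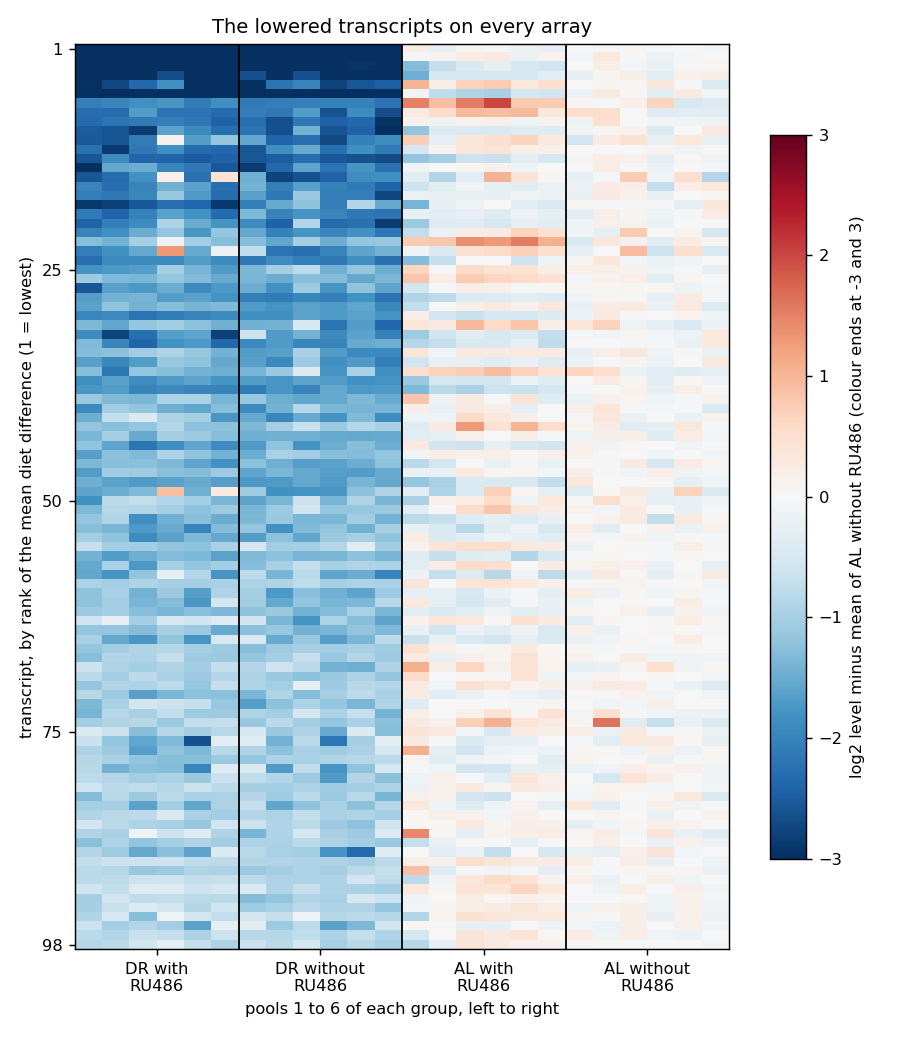
Rows are the 98 lowered transcripts by rank of their mean diet difference, columns are the 24 arrays with pools 1 to 6 in each group, and colour is the log2 level minus the mean of AL without RU486. The 12 DR columns are blue over nearly all rows, and single DR pools in paler or red colours mark the members whose pools disagreed.

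The lowest members were FBtr0089324 and FBtr0089326, whose numbers lie close together and whose diet differences stood apart from all the others. FBtr0089324 had lowest, median and highest levels of 7.69, 8.16 and 9.45 log2 in DR pools with RU486 and 7.28, 8.10 and 8.87 in DR pools without it, against 12.72, 12.86 and 13.20 in AL pools with RU486 and 12.92, 12.98 and 13.05 in AL pools without it. FBtr0089326 had 7.69, 8.09 and 8.80 in DR pools with RU486 and 7.25, 7.98 and 8.70 in DR pools without it, against 12.38, 12.67 and 12.83 in AL pools with RU486 and 12.38, 12.50 and 12.88 in AL pools without it. In both, the highest DR pool was more than 3 log2 below the lowest AL pool. The group medians were 26.1-fold lower with RU486 and 29.4-fold lower without it for FBtr0089324, and 23.9-fold and 23.0-fold lower for FBtr0089326. On 1 of 12 DR arrays each was not above background, so the DR level was close to the limit of measurement.

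FBtr0089325, whose number lies between theirs, had differences of only -0.23 without RU486 and -0.09 with it. FBtr0089323, the number before them, was higher on DR by 1.58 and 1.55. The change was therefore not shared by every transcript with a neighbouring number.

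FBtr0082651, FBtr0084441 and FBtr0078025 came next. FBtr0082651 had 8.10, 8.25 and 8.44 log2 in DR pools with RU486 and 7.96, 8.35 and 9.12 in DR pools without it, against 10.74, 11.50 and 11.75 in AL pools with RU486 and 11.86, 12.06 and 12.23 in AL pools without it. FBtr0084441 had 8.97, 9.40 and 9.81 in DR pools with RU486 and 8.66, 9.15 and 9.85 in DR pools without it, against 11.02, 11.96 and 12.16 in AL pools with RU486 and 12.13, 12.59 and 12.65 in AL pools without it. FBtr0078025 had 7.63, 7.92 and 8.94 in DR pools with RU486 and 7.38, 8.27 and 8.76 in DR pools without it, against 10.97, 11.36 and 11.78 in AL pools with RU486 and 10.35, 10.78 and 11.11 in AL pools without it. The diets did not overlap in any of them. The medians were 9.48-fold lower with RU486 and 13.1-fold lower without it for FBtr0082651, 5.89-fold and 10.9-fold lower for FBtr0084441, and 10.9-fold and 5.71-fold lower for FBtr0078025. The AL median was lower with RU486 than without it for FBtr0082651 and FBtr0084441 and higher for FBtr0078025, and the DR medians differed less between the settings.

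FBtr0085626 had 7.41, 7.78 and 7.95 log2 in DR pools with RU486 and 7.35, 7.81 and 7.95 in DR pools without it, against 10.00, 10.32 and 10.88 in AL pools with RU486 and 10.66, 10.96 and 11.25 in AL pools without it. It was above background on 11 of 12 DR arrays. FBtr0073651 had 6.98, 7.18 and 7.35 in DR pools with RU486 and 6.88, 7.02 and 7.06 in DR pools without it, against 9.85, 10.30 and 11.09 in AL pools with RU486 and 8.61, 9.11 and 9.75 in AL pools without it. FBtr0073651 was the only member below background on all 12 DR arrays. Its DR level has only an upper bound, and with each DR array set to the higher of its background and the measured value, it was at least 7.20-fold lower on DR with RU486 and at least 3.28-fold lower without it.

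FBtr0079073 had 9.26, 9.31 and 9.89 log2 in DR pools with RU486 and 8.91, 9.46 and 9.88 in DR pools without it, against 11.85, 12.31 and 12.55 in AL pools with RU486 and 11.18, 11.41 and 12.09 in AL pools without it. FBtr0088748 had 8.50, 8.77 and 8.87 in DR pools with RU486 and 8.0, 8.54 and 8.78 in DR pools without it, against 10.78, 11.05 and 11.12 in AL pools with RU486 and 10.79, 10.84 and 11.40 in AL pools without it. FBtr0080563 had 10.23, 10.70 and 11.46 in DR pools with RU486 and 9.99, 10.57 and 11.65 in DR pools without it, against 11.90, 12.66 and 12.71 in AL pools with RU486 and 12.68, 13.13 and 13.36 in AL pools without it. All DR pools lay below all AL pools in these members too. FBtr0088748 had nearly the same difference at both settings, -2.28 with RU486 and -2.29 without it.

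**Figure D3:**
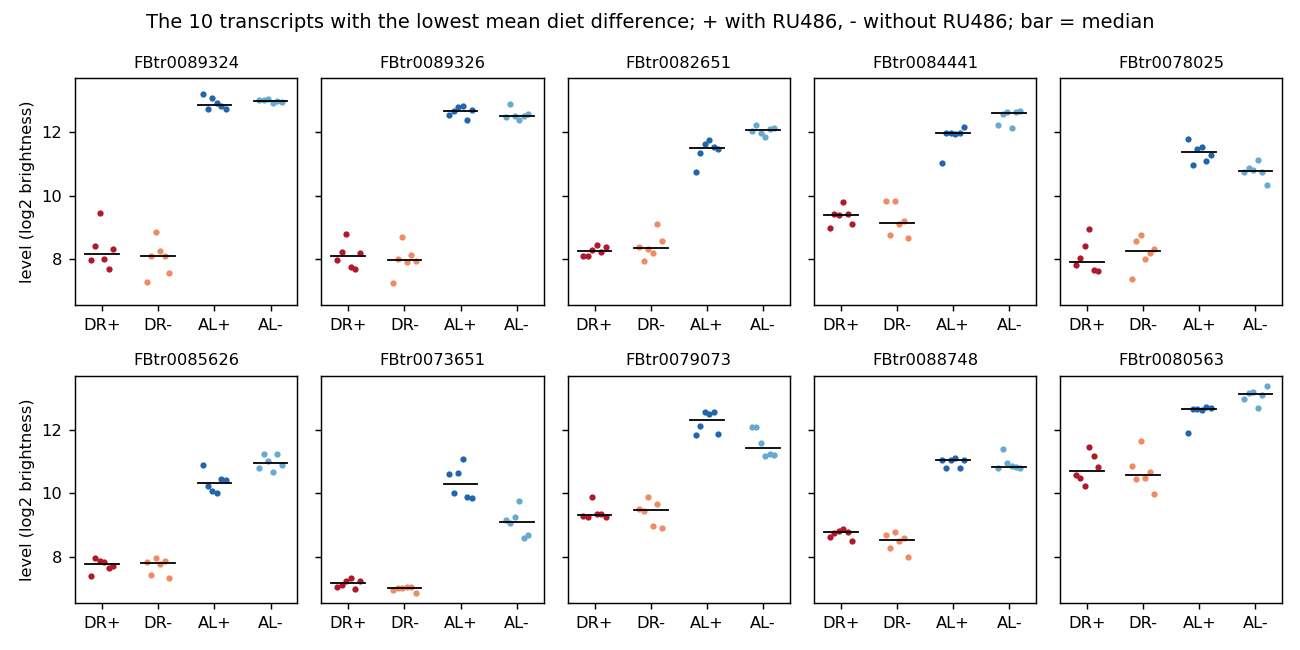
Each panel shows the log2 level of 1 of the 10 members with the lowest mean diet difference, with a point per pool and a bar at the median of each group of 6. In every panel the DR points, in red and orange, lie below the AL points, in dark and light blue.

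Nearly all probes of the members were lower on DR, which follows in large part from the choice of members on the mean of these probes. The share over all probes of the array was not counted. In some members the probes span a short stretch, such as positions 43 to 151 in FBtr0091694. Of the 784 probes of the members, 783 had a lower group median on DR at both RU486 settings, and 604 were at most -0.8 at both. All 8 probes were this low for 32 members, and 2 members, FBtr0077986 and FBtr0076720, had only 2 such probes. By order along the transcript, the median of the probes' mean difference ran from -1.14 to -1.31 log2. The range over the 8 probes of a member had a median of 0.67, and it was 0.11 at the smallest, for FBtr0089228. In FBtr0089324 each of the 8 probes had a mean difference between -5.31 and -4.25.

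The size of the difference varied along a few members, whose dim probes differed little. In FBtr0084485, the 4 probes whose position numbers along the transcript run from 1057 to 1209 had levels from 6.98 to 8.30 on AL without RU486, and their differences with RU486 ran from -0.35 to -0.14. The 4 probes from 1370 to 1991 had AL levels from 10.41 to 10.96 and differences with RU486 from -2.05 to -1.50. In FBtr0086562 the 2 probes at positions 1 and 2 were at 7.30 and 6.86 on AL without RU486, with differences of -0.07 and -0.03 at that setting. Its other 6 probes, from 471 to 501, had differences of -2.63 to -2.03. The mean over 8 probes is thus smaller in size than the difference of the bright probes in these members.

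FBtr0112357 held the 1 probe that was not lower on DR at both settings. That probe, at position 181, was its brightest, at 13.20 on AL without RU486, and its difference was 0.07 without RU486 and -1.13 with it. The 4 probes from 19 to 32 had differences of -2.32 to -1.85 without RU486 and -3.02 to -2.71 with it. How far this transcript was lower on DR thus depended on the probe.

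Transcripts with adjacent FlyBase numbers are often isoforms of a gene or products of neighbouring genes, although the files do not say which. Of the members, 20 lay in 9 runs with numbers at most 3 apart. The share for other sets of transcripts of this size was not counted. The longest runs were FBtr0080549, FBtr0080550 and FBtr0080551, with differences without RU486 of -2.28, -1.77 and -2.09, and FBtr0079237, FBtr0079238 and FBtr0079241, with -0.98, -1.21 and -1.63. The other pairs were FBtr0077929 and FBtr0077932, FBtr0080563 and FBtr0080564, FBtr0083971 and FBtr0083972, FBtr0084484 and FBtr0084485, FBtr0087720 and FBtr0087722, and FBtr0088757 and FBtr0088758, beside the lowest pair.

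Within 3 numbers of these runs lay 39 other transcripts of the array. Of them, 5 had both differences at most -0.5, where 1.67% of all transcripts did. These were FBtr0077931, at -0.75 without RU486 and -1.11 with it, FBtr0079239, at -0.69 at both, FBtr0079240, at -1.36 and -0.69, FBtr0080565, at -0.78 and -0.91, and FBtr0084481, at -0.52 and -0.68. Another 6 were higher by at least 0.5 at both, where 12.4% of all transcripts were, and among them was FBtr0080560, at 2.00 and 1.12, only 3 numbers from FBtr0080563. The share of lower neighbours was thus above that of all transcripts, while the share of higher neighbours was near it. Neither was tested. The limit of 0.5 was chosen after the values were seen.

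The question whether RU486, averaged over the diets, changed the members uses a contrast that the rule did not fix. Its estimate is independent of both diet differences of group means where pools vary alike in every group. The members' median SD ran from 0.18 log2 on AL without RU486 to 0.27 on AL with it, and the rule used medians. The independence is therefore only approximate. Of the 98 members, 17 passed at an adjusted p below 0.05 in limma, 8 higher and 9 lower with RU486, and 81 did not pass. Over all transcripts 454 passed, or 2.73%, with 0.715% higher and 2.01% lower. The members' share was 17.3%. When arrays were weighted by their spread, 1235 transcripts and 25 members passed, 12 of the members higher and 13 lower. Members also had larger effects of either sign, with a median size of 0.16 log2 against 0.06 for all transcripts, while their median effect was 0.03 against 0.00. No direction prevailed among them. Members also varied more between pools than most transcripts, as given below, and a wider spread alone enlarges such sizes. How much of the size this accounts for was not tested. An unadjusted p below 0.05 was found for 35.7% of the members and for 16.3% of all transcripts.

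Array AL with RU486 pool 1 had a large part in the count over all transcripts and a smaller one in the members' count. Without that array 845 transcripts passed, and without both arrays that stand apart 750 did and 19 members passed. Leaving out each array in turn, this one included, gave 13 to 21 members. With a change of at least 1.5-fold in addition, 42 transcripts and 4 members passed.

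Among the members higher with RU486, FBtr0073651 had the largest change. Its lowest, median and highest levels were 9.85, 10.30 and 11.09 log2 in AL pools with RU486, against 8.61, 9.11 and 9.75 in AL pools without it, and the DR pools were below background in both groups. The groups on AL did not overlap. Averaged over diets it rose by 0.71 ± 0.12 log2 (SE, limma adjusted p = 0.0018), a value that includes DR levels that are only bounds, and on AL the difference was 1.25 ± 0.18.

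FBtr0087720 had 7.41, 7.67 and 8.64 log2 in DR pools with RU486, against 7.27, 7.59 and 7.84 in DR pools without it. On AL it had 9.61, 10.01 and 10.35 in pools with RU486, against 8.38, 8.94 and 9.17 in pools without it. The pools overlapped on DR, where 9 of 12 arrays were above background, and not on AL. Averaged over diets it rose by 0.69 ± 0.12 (limma adjusted p = 0.0022).

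FBtr0074859 differed more on DR than on AL. It had 10.65, 11.12 and 11.41 log2 in DR pools with RU486, against 9.87, 10.33 and 11.08 in DR pools without it, and 11.71, 11.96 and 12.11 in AL pools with RU486, against 11.34, 11.69 and 11.88 in AL pools without it. The pools overlapped on both diets. The averaged rise was 0.48 ± 0.10 (limma adjusted p = 0.010), with 0.70 ± 0.15 on DR and 0.27 ± 0.15 on AL.

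FBtr0077130 had 7.71, 7.91 and 8.16 log2 in DR pools with RU486, against 7.70, 7.84 and 7.95 in DR pools without it. On AL its levels were 9.45, 9.83 and 10.06 with RU486, against 8.91, 9.25 and 9.43 without it, with no overlap. It rose by 0.35 ± 0.07 (limma adjusted p = 0.0043). FBtr0074769 had 7.69, 7.92 and 8.21 in DR pools with RU486, against 7.18, 7.44 and 8.14 in DR pools without it, and 9.0, 9.39 and 9.47 in AL pools with RU486, against 8.89, 9.05 and 9.44 in AL pools without it. Its pools overlapped on both diets, and its rise of 0.34 ± 0.09 (limma adjusted p = 0.042) was not called when any of 17 single arrays was left out. The other 3 members that rose did so by 0.20 to 0.32.

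Among the members lower with RU486, FBtr0112357 had the largest change. Its levels were 9.16, 9.41 and 9.78 log2 in DR pools with RU486, against 9.99, 10.55 and 11.20 in DR pools without it. On AL they were 10.68, 11.79 and 12.05 with RU486, against 11.79, 12.03 and 12.42 without it. The pools did not overlap on DR and overlapped on AL. The averaged change was -0.76 ± 0.14 (limma adjusted p = 0.0028), with -1.09 ± 0.20 on DR and -0.43 ± 0.20 on AL.

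FBtr0273369 was lower with RU486 by nearly the same amount on both diets. It had 9.38, 10.10 and 10.59 log2 in DR pools with RU486, against 10.14, 10.52 and 11.55 in DR pools without it, and 11.12, 11.65 and 11.86 in AL pools with RU486, against 12.01, 12.11 and 12.49 in AL pools without it. The AL pools did not overlap. The averaged change was -0.61 ± 0.15 (limma adjusted p = 0.024), from -0.61 ± 0.21 on DR and -0.60 ± 0.21 on AL.

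FBtr0071087 differed on AL, where its levels were 9.75, 10.35 and 10.57 log2 with RU486, against 10.83, 11.08 and 11.27 without it, with no overlap. On DR the levels were 9.07, 9.14 and 9.40 with RU486, against 8.97, 9.36 and 9.54 without it, and the pools overlapped. It fell by 0.46 ± 0.08 on average (limma adjusted p = 0.0016). FBtr0082651, one of the lowest members above, fell by 0.41 ± 0.11 (limma adjusted p = 0.037), with -0.65 ± 0.15 on AL and -0.17 ± 0.15 on DR, and was not called when any of 12 single arrays was left out.

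FBtr0080216 had 10.43, 10.93 and 11.51 log2 in DR pools with RU486, against 10.84, 11.02 and 11.37 in DR pools without it, and 11.97, 12.24 and 12.58 in AL pools with RU486, against 12.64, 12.80 and 13.12 in AL pools without it. Its pools overlapped on DR and not on AL. It fell by 0.38 ± 0.10 (limma adjusted p = 0.044), a call lost when any of 15 single arrays was left out. The other 4 members that fell had changes of -0.35 to -0.29.

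**Figure D4:**
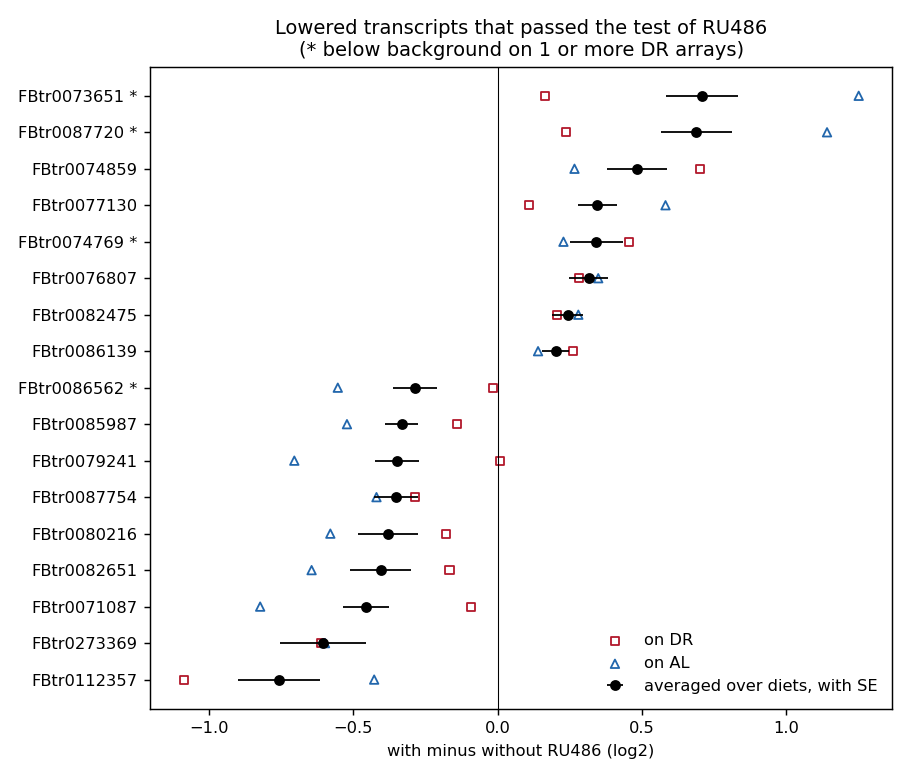
Rows are the 17 members that passed the test of RU486 averaged over diets, black points with bars give the averaged effect and its SE in log2, and open squares and triangles give the difference on DR and on AL. FBtr0073651 is highest at 0.71 and FBtr0112357 lowest at -0.76, and stars mark members below background on 1 or more DR arrays.

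Of these 17 members, 16 had the same sign on both diets. The exception was FBtr0079241, at 0.01 ± 0.11 log2 on DR and -0.71 ± 0.11 on AL. The difference was larger on AL for 12 members and on DR for 5. A call on the average of the diets favours members whose differences on DR and AL share a sign. The count of 16 therefore follows in large part from the call. The shares among all called transcripts were not counted. These differences by diet share arrays with the rule and were not tested, and 4 of the 17 were below background on 1 or more DR arrays.

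The diet difference itself was not the same with and without RU486 for every member. It was smaller with RU486 for 58 members and larger for 40, and the median change was 0.06 log2. A higher value with RU486, which for members is a smaller difference, was found for 8661 of all 16637 transcripts, with a median change of 0.01. For comparison, 927 transcripts were higher on DR by at least 0.8 log2 at both settings, and of these 836 had a smaller difference with RU486, with a median change of -0.23. Of the 927, 10.2% passed the test of RU486 averaged over diets, 6 higher and 89 lower. Most transcripts of either list did not pass. The difference between the lists was not tested.

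The diet difference widened most with RU486 for FBtr0083971, with a change of -1.06 log2, for FBtr0079073, with -1.04, for FBtr0073651, with -1.03, for FBtr0087720, with -1.0, and for FBtr0078025, with -0.93. The value of FBtr0073651 and its place in this order rest on DR levels below background on all 12 DR arrays, so neither of its diet differences was measured exactly, and FBtr0087720 was below background on 3 DR arrays. In all 5 the AL median was higher with RU486 than without it. FBtr0083971 had 9.55, 10.35 and 10.52 in DR pools with RU486 and 9.85, 10.46 and 11.29 in DR pools without it, against 12.12, 12.40 and 12.62 in AL pools with RU486 and 11.34, 11.45 and 12.35 in AL pools without it. Its AL pools overlapped between RU486 settings, as did its DR pools.

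The difference narrowed most for FBtr0084441, by 0.88 log2, for FBtr0087401 and FBtr0080549, by 0.83 each, for FBtr0084484, by 0.78, and for FBtr0080564, by 0.67. Among these, only FBtr0087401 had pools that did not overlap between RU486 settings on either diet. It had 8.19, 8.36 and 8.60 in DR pools with RU486 and 7.79, 7.95 and 8.18 in DR pools without it, against 9.09, 9.58 and 9.67 in AL pools with RU486 and 9.76, 10.00 and 10.24 in AL pools without it. With RU486 every DR pool was higher and every AL pool lower than every pool of the same diet without it. This separation describes a member picked for its large change and was not tested. The share of all transcripts with such a separation was not counted. FBtr0087401 did not pass the averaged test, at -0.05 ± 0.07 (limma adjusted p = 0.77), where the opposite differences on the diets, 0.44 ± 0.10 on DR and -0.54 ± 0.10 on AL, cancel.

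FBtr0084484 was above background on 4 of 12 DR arrays, and its AL levels were 8.67, 9.22 and 9.52 with RU486, against 9.58, 9.87 and 10.07 without it. FBtr0080549 had 10.77, 11.35 and 12.26 in DR pools with RU486 and 10.32, 10.92 and 12.32 in DR pools without it, against 12.07, 12.81 and 12.94 in AL pools with RU486 and 13.02, 13.20 and 13.33 in AL pools without it. Its lowest AL pool with RU486 was pool 1, the array that stands apart, and was below its highest DR pool with RU486.

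The members varied more between pools of a group than most transcripts did. The median SD over 6 pools was 0.25 log2 for members and 0.13 for all transcripts on DR with RU486, and 0.27 and 0.11 on DR without it. On AL it was 0.27 and 0.15 with RU486, and 0.18 and 0.11 without it. For the 927 raised transcripts the medians lay between 0.13 and 0.20. Members therefore did not share a common small spread, and single pools departed from their group in a number of them.

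Some members departed in the same pools. Over the 24 arrays, with group means removed, Pearson's r was at least 0.7 for 116 of the 4753 pairs of members, or 2.44%, against 1.94% of all pairs of transcripts and 7.99% of pairs of raised transcripts. Without the 2 arrays that stand apart the shares were 2.67% for members, 0.56% for all transcripts and 3.70% for raised transcripts. The points of each correlation share the array, its pool of flies and its labelling. Grouping members so that every pair in a group had an r of at least 0.7 gave 9 groups of 3 or 4, with 30 members, and this limit was chosen after the correlations were seen. No count of such groups is given for other transcripts. The groups below are thus a description and not a trait shown to be particular to the members. Without the 2 arrays that stand apart, 3 of the 9 groups held a pair below the limit.

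The members FBtr0086621, FBtr0087436, FBtr0087653 and FBtr0091694 formed the group with the largest departures, and their r ranged from 0.79 to 0.95. On DR with RU486, pools 4 and 6 were far above the other 4 pools, by 1.82 log2 above the group mean in pool 4 and 1.03 in pool 6. FBtr0086621 was at 11.52 log2 in pool 4 and 10.04 in pool 6, against 8.15 to 8.70 in the other pools of that group. FBtr0087436 was at 10.11 and 9.48, against 7.64 to 7.89, and FBtr0091694 was at 11.09 and 11.34, against 8.37 to 9.11. In both pools these 3 members were within or above the range of AL pools with RU486, which was 9.80 to 10.94 for FBtr0086621. FBtr0087653 was high in pool 4, at 10.87, and less so in pool 6, at 9.59.

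With group means in place of medians, the diet difference with RU486 was -2.03 log2 for FBtr0087653, -1.39 for FBtr0091694, -1.25 for FBtr0086621 and -0.58 for FBtr0087436. Only the last of these misses the limit of the rule. On DR without RU486 their pools did not overlap those of AL without RU486. Neither of these pools is an array that stands apart over all transcripts.

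FBtr0080549, FBtr0080550, FBtr0080551 and FBtr0080563 also varied together, with r between 0.81 and 0.93, and 3 of them have consecutive numbers. On DR without RU486 pool 3 was their highest, and on DR with RU486 pool 4 was. FBtr0080551 was at 9.95 log2 in the first of these pools and 9.91 in the other, and its AL levels had a narrow range, from 10.80 to 10.91 with RU486 and from 10.83 to 11.33 without it. It was thus lower on DR in all pools while varying most there.

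FBtr0072883, FBtr0072902, FBtr0078587 and FBtr0083430 formed a group with r between 0.77 and 0.94. They were high in pool 6 and low in pool 5 on DR with RU486, by 0.78 and -0.81 log2 from the group mean, and high in pool 1 and low in pool 4 on DR without RU486, by 0.65 and -0.76. FBtr0079073, FBtr0083971 and FBtr0083972 had r between 0.83 and 0.85. On AL without RU486 pools 1 and 2 were their highest, at 12.35 and 12.24 for FBtr0083971, against 11.34 to 11.50 in the other 4 pools. On AL with RU486 all 6 pools of FBtr0083971 were at 12.12 or higher.

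The closest pair was FBtr0079171 and FBtr0079238, with r = 0.97 and rho = 0.95, and r was at least 0.86 within each group of 6 pools. Both were highest in pool 1 of DR with RU486, pool 1 of AL with RU486 and pool 3 of AL without RU486. The group of FBtr0079237, FBtr0087754 and FBtr0113731 had a lowest r of 0.18 without the arrays that stand apart, against 0.74 with them. The lowest r was 0.60 without them, against 0.75 with them, for FBtr0076589, FBtr0079241 and FBtr0100090, and 0.69, against 0.72, for FBtr0084484, FBtr0084485 and FBtr0086562.

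**Figure D5:**
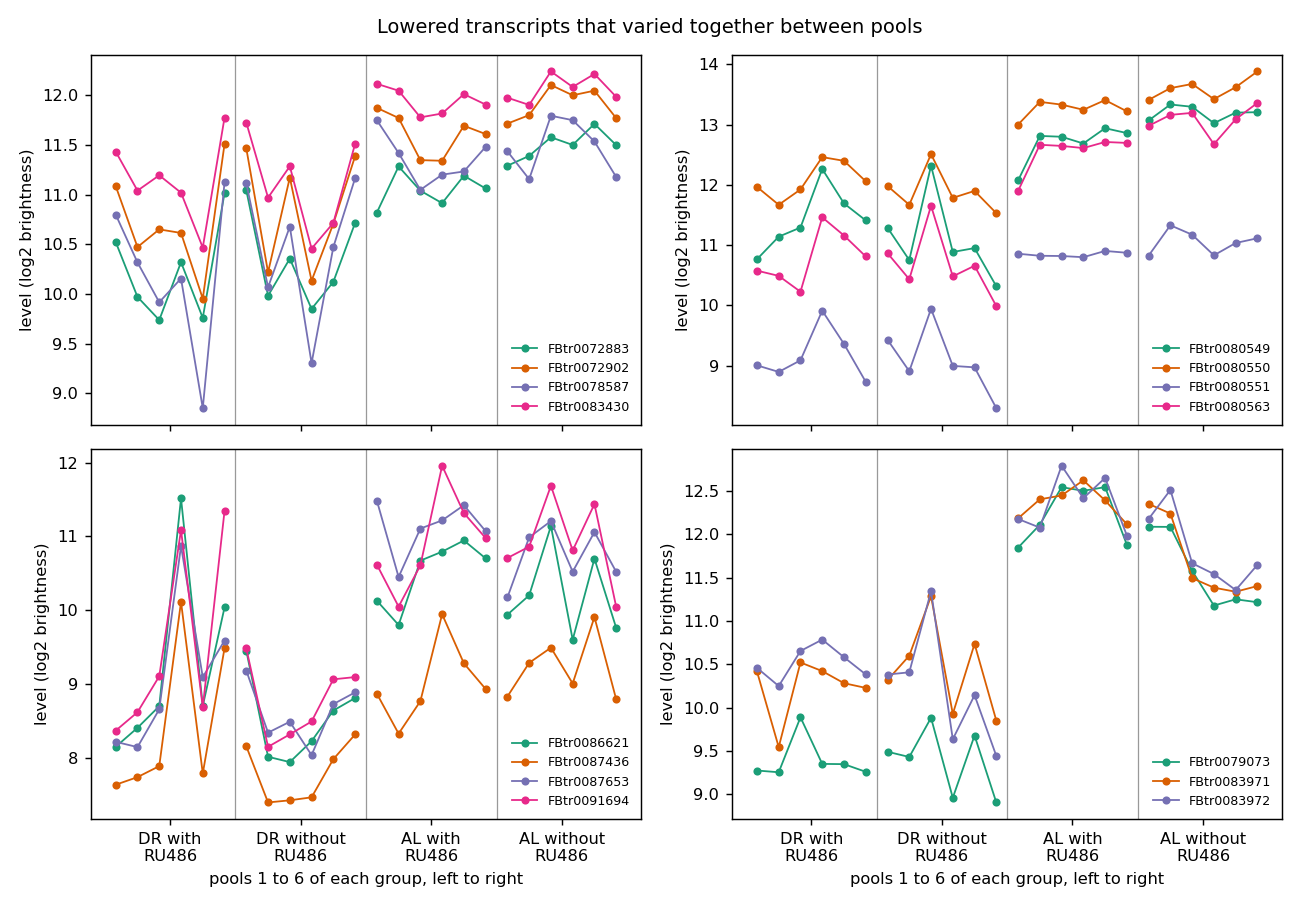
Each panel plots the log2 level of 3 or 4 members that varied together over the 24 pools, with lines joining pools 1 to 6 within a group only to guide the eye. At the lower left, FBtr0086621, FBtr0087436, FBtr0087653 and FBtr0091694 are high together in pool 4 of DR with RU486, where FBtr0086621 is at 11.52.

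Of the transcripts that the pathway lists matched, 0 of 3 passed the test of RU486 averaged over diets. The values were 0.08 ± 0.05 log2 for mio (limma adjusted p = 0.51) and 0.11 ± 0.07 for Wdr24 (adjusted p = 0.47), both parts of GATOR2, a complex upstream of TORC1. Fatp1, a fatty acid transport protein, was at -0.07 ± 0.05 (adjusted p = 0.54).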

How the data were processed

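The deposited values were log2 brightness per probe for 24 arrays, with the base taken from their range of 6.09 to 16.51. The submitters' processing notes name limma and give no version, and the authors' background correction, normalization and log base are not given in the sources used here. The values were used as deposited. The 4091 random probes were set aside, and the probes of a transcript (the first 11 characters of the identifier) were averaged. An array's background was taken from its random probes, averaged in 511 sets of 8, as the 95th percentile of these averages. No slide or date was given in the sources used here, so none was entered as a batch. The number of arrays limits the precision.

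All transcripts were fitted in limma 3.58.1 under R 4.3.3 by lmFit and eBayes, as 4 group means, and Benjamini-Hochberg adjusted p-values over all 16637 were called at 0.05. The fit was tested on simulated data. Within-group correlations, overlap of pools and figures were computed with Python 3.11.15, numpy 2.4.6, pandas 2.3.3 and matplotlib 3.10.9. The alternatives were quantile normalization, centring, medians over probes, a filter on dim transcripts, other limits, the pool number as a block, array weights and leaving out arrays.

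The members and lists were chosen with earlier results of these data known. The text names the 10 members with the lowest mean diet difference, the 5 that rose most and the 5 that fell most with RU486, the 5 whose diet difference widened most and the 5 whose difference narrowed most, those next to the limit, and runs of close numbers. Members named for varying together, for their probes or for overlapping pools were chosen after their values were seen. Gene lists and markers covered yolk and eggshell, digestive enzymes, fatty acid metabolism, insulin and TOR, antimicrobial peptides, stress and detoxification, and ovary, male, gut, fat body and muscle markers. Of these only the fatty acid list, with 1, and the insulin and TOR list, with 2, matched transcripts on the array.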

Additional observations from a re-analysis of the deposited data

Results flagged for a closer look

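The pools of each group were checked for a single pool far from the others, for the 37 members named by rule and for the median over all members. Of the 152 sets of 6 pools, 15 held such a pool, all of them for single members. For independent sets chance gives about 1 in 20, or 7.6. These sets share arrays, and some members vary together, so the 15 cannot be read as an excess over chance. The share over all transcripts was not counted. In AL with RU486 pool 1, the array that stands apart over all transcripts, lay 6 of the 15. It was low for FBtr0084441, at 11.02 log2 against 11.94 in the nearest pool, for FBtr0080563, at 11.90, for FBtr0112357, at 10.68, for FBtr0080549, at 12.07, and for FBtr0087722, at 8.86. It was high for FBtr0079237, at 11.03 against 10.07.

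In AL without RU486 pool 2, 3 members were high. These were FBtr0088748, at 11.40, FBtr0088758, at 10.56, and FBtr0085426, at 10.30 against 8.77 in the nearest pool. FBtr0085426 lies just inside the limit of the rule, and its SD on AL without RU486 was 0.84.

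On DR with RU486, FBtr0079073 was high in pool 3, at 9.89, the other array that stands apart. FBtr0087720 was high in pool 4, at 8.64, and FBtr0084484 in pool 2, at 7.97, while FBtr0083971 was low in pool 2, at 9.55. FBtr0074769 was high in pool 3 of DR without RU486, at 8.14, and low in pool 2 of AL with RU486, at 9.0.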

How the results depend on the processing

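The rule gave 115 transcripts after quantile normalization and 122 after centring, with all 98 members among them, 108 with medians over probes, 101 with group means, and 92 to 101 when each array was left out in turn. Quantile normalization and centring both moved the median diet differences down, which keeps members inside the limit. A limit of -1 left 54. For RU486 averaged over diets, the 454 transcripts became 1235 under array weights, 42 at 1.5-fold and, in a choice made after seeing the data, 750 without the 2 arrays that stand apart, and 305 to 845 when each array was left out, 845 without AL with RU486 pool 1. Members called numbered 15 to 25 under the other settings and 4 at 1.5-fold, a count added after seeing the data, and 13 to 21 when each array was left out, with 7 to 10 higher and 6 to 11 lower. FBtr0074769 was not called after quantile normalization or without the 2 arrays, and FBtr0080216 with medians over probes, with the block or without the 2 arrays. The other 8 named members kept their calls under these 7 settings, and no named member changed direction. Pools with the same number did not deviate together (36 pairs, r -0.31 to 0.25, 6 over 0.1, and 1 of 24 arrays closest to its own number). With the pool number as a block 336 transcripts and 17 members passed, and for diet 10681 without RU486 and 7920 with it. After centring, 12574 and 10011 passed for diet, against 10860 and 8116. Levels near background limit the size of the DR values of 10 members.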
